A study of Mus musculus with 6 samples.

Results

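DNA replication and S phase genes are 50 genes listed by their role in copying the genome, from origin licensing to nucleotide supply. That rule uses no measured value, but the list was drawn up with earlier results of these data known. Every probe set of the array whose only annotated gene symbol is a listed gene was taken, which gave 108 probe sets for 49 of the 50 genes. Chaf1a was not analysed here. Of these, 91 probe sets of 48 genes were bright enough to be tested, out of 12511 genes tested in all. Tyms, thymidylate synthase, was left out because none of its 4 probe sets passed the filter on dim signals. Where a gene had several tested probe sets, the one with the highest mean stands for it unless stated.

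The arrays measured total RNA of resident peritoneal macrophages, the macrophages that live free in the abdominal cavity. Cells came by lavage from mice 7 weeks old, were pooled from 2 to 3 mice per sample, and were sorted as high in CD11b and low in or negative for MHC class II. The Gata6-KO group is 3 pools from mice with a conditional (floxed) deficiency of Gata6, and the Gata6-WT group is 3 pools from wild type mice matched for sex. Neither the Cre driver nor the strain nor the targeted exon is given in the labels, so how many cells carry the deletion is not known. GATA6 is a transcription factor tied to the identity of these macrophages, and the study compared Gata6-deficient with wild type cells.

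Genome copying starts when the origin recognition complex, with CDC6 and CDT1, loads the ring-shaped MCM helicase onto DNA, a step that geminin blocks after S phase begins. CDC45 and the GINS complex then turn the loaded rings into active helicases, RPA coats the exposed single strands, and polymerases held by the PCNA clamp copy them. Many of these genes are switched on by E2F factors when a cell enters the cycle. Resident peritoneal macrophages are known to renew themselves by local division, mostly at a low rate, so a bulk sample mixes a few cycling cells with many resting ones. In such samples fewer cycling cells and less RNA per cell cannot be told apart.

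Median probe set signals lay between 79.7 and 88.5 on the 6 arrays, and arrays of 1 genotype correlated at r = 0.964 to 0.972. The brightest Gata6 probe set had a signal of 4452, 3040 and 2998 in Gata6-KO pools against 6433, 5405 and 7279 in Gata6-WT pools (limma adjusted p = 0.011). Its lowest Gata6-WT value lay above every Gata6-KO value, yet much signal remained in Gata6-KO. A second probe set was lower too, at 184.1, 172.5 and 183.3 against 336.9, 449.2 and 483.5 (adjusted p = 0.0043), and the other one did not differ by more than its spread, at 2161, 1363 and 1751 against 1614, 1436 and 2276 (adjusted p = 0.98). Where these probe sets lie relative to the deletion is not known. Sex-linked genes showed male-type expression in replicate 1 of both genotypes and female-type expression in replicates 2 and 3, so values within each type are given for the members that passed and for the 6 with the widest gap between types. Among 9 markers of peritoneal macrophages 5 were lower and 0 higher in Gata6-KO, with summed signals of 226200 to 246500 against 250300 to 313100 in Gata6-WT. These markers include Gata6, the targeted gene, which is among the 5. Of 33 markers of other cell types 10 were bright enough to test, and 1 was lower, the neutrophil gene S100a8, with 0 higher. The summed signal of the neutrophil markers was 507.3 to 812.2 in Gata6-KO and 969.8 to 1635 in Gata6-WT, and that of mast cell and eosinophil markers 307.7 to 486.1 against 494.8 to 661.2. Erythroid markers summed to 166.1 to 180.1 in Gata6-KO and 119.3 to 141.3 in Gata6-WT. The neutrophil sum was mostly S100a8, with means of 487.7 in Gata6-KO and 1111 in Gata6-WT. In the same order, Elane had 72.1 and 76.7, while Mpo had 53.7 and 32, Camp 27 and 20.5, and S100a9 17.9 and 4.11. In the erythroid sum Klf1 had 121.1 and 71.1 and Alas2 15 and 6.22, but Hba-a1 38.8 and 56.2. The part of these cells in the results below was not tested. None of the T cell, NK cell, mesothelial or stromal markers reached the filter.

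Gata6-KO macrophages had less Cdt1 and Rpa1 RNA than Gata6-WT macrophages, by about the same factor, while 46 of the 48 replication genes did not pass the test. Cdt1 was 1.93-fold and Rpa1 1.85-fold lower. So 2 of 48 members fell, a share of 4.17%, where the same rule called 7.46% of all genes lower. No member rose, and 5.61% of all genes did. At this threshold calls among replication genes were thus no more frequent than among genes in general. The rule was an adjusted p under 0.05 in limma over all probe sets tested. With the unadjusted p under 0.05, 16 members, or 33.3%, were lower, where 15.9% of all genes were, and 1, geminin, or 2.08%, was higher, where 11.9% of all genes were. Cdc45 and Rrm1 count among the 16 by their brighter probe sets, while a second tested probe set of each lay above 0.

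Most members leaned the same way by small amounts. The log2 difference, always Gata6-KO minus Gata6-WT of log2(signal + 16), was below 0 for 37 of 48 members, or 77.1%, and for 53.8% of all genes. Its median was -0.27 over the members and -0.036 over all genes tested. The Gata6-KO values all lay below the Gata6-WT values for 17 members, or 35.4%, where 19.4% of all genes did so, and all lay above them for 1 member, E2f1, where 15.0% of all genes did so. In 41 of the 48 the mean difference was under 1.5-fold in either direction. For 37 members the 95% interval of the difference stayed within 2-fold either way, and for the other 11 it reached further. The members' median was -0.24 in the female-type arrays and -0.17 in the male-type arrays. The gap between types was widest for E2f2, given below with its signals, and next for Ccne1, at -0.96 in the female-type and 0.71 in the male-type arrays. Then followed Chaf1b at -0.44 and 0.60, Pole at -0.035 and -0.94, Ung at -1.11 and -0.34 and Cdc6 at -0.83 and -0.14, in the same order of types. The male-type difference rests on 1 array of each genotype, and for all 48 members limma's interaction term between type and genotype gave adjusted p = 1.

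**Figure D1:**
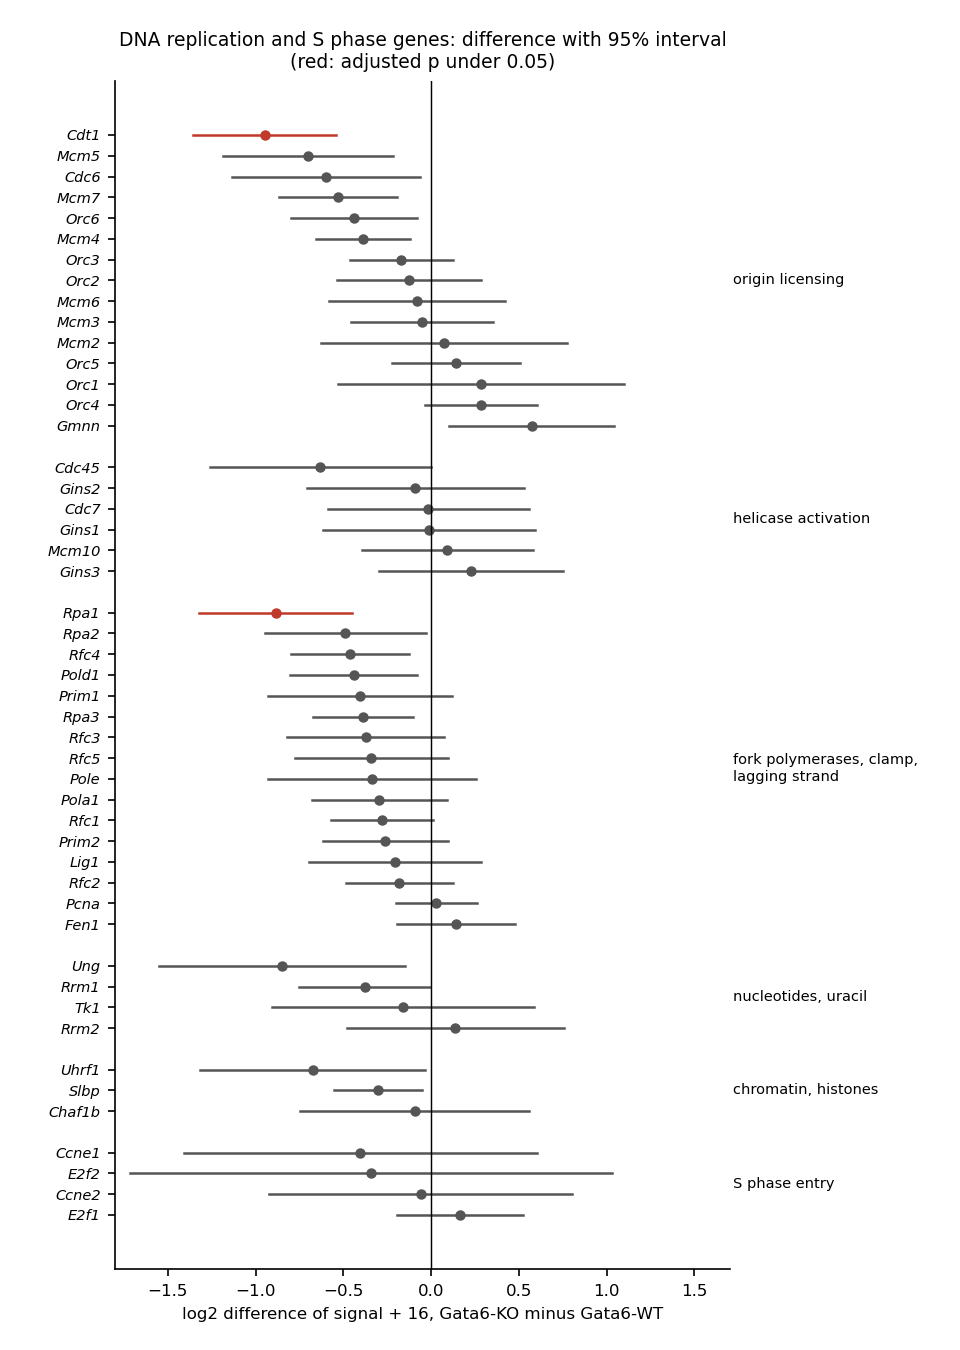
Log2 difference of signal + 16 (horizontal axis, Gata6-KO minus Gata6-WT) for the 48 tested members, grouped by role, with lines for the 95% interval of the limma fit over 3 against 3 arrays. Cdt1 and Rpa1, in red, are the 2 members past the threshold, and 37 of the 48 points lie left of 0.

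The 6 arrays did not divide cleanly by genotype. Taken as log2 values minus the Gata6-WT mean, the members' median was -0.15, -0.25 and -0.39 in Gata6-KO replicates 1, 2 and 3, and 0.047, -0.15 and 0.14 in Gata6-WT replicates 1, 2 and 3. Gata6-WT replicate 2 therefore lay beside Gata6-KO replicate 1 and apart from the other Gata6-WT arrays. Gata6-KO replicate 3 held the lowest signal of all 6 arrays for 21 members, Gata6-WT replicate 2 for 13, and Gata6-WT replicate 3 the highest signal for 22. The proliferation marker Mki67 had 468.6, 462.1 and 368.8 in Gata6-KO and 604.3, 274.4 and 548.7 in Gata6-WT, again lowest in Gata6-WT replicate 2. Top2a, a topoisomerase of dividing cells, had 439, 356.9 and 270.5 in Gata6-KO and 659.7, 395.5 and 529.4 in Gata6-WT. Both overlapped between genotypes and neither passed, with adjusted p = 0.92 for Mki67 and 0.17 for Top2a in limma. The part that differences in dividing cells between pools take in the results was not tested.

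**Figure D2:**
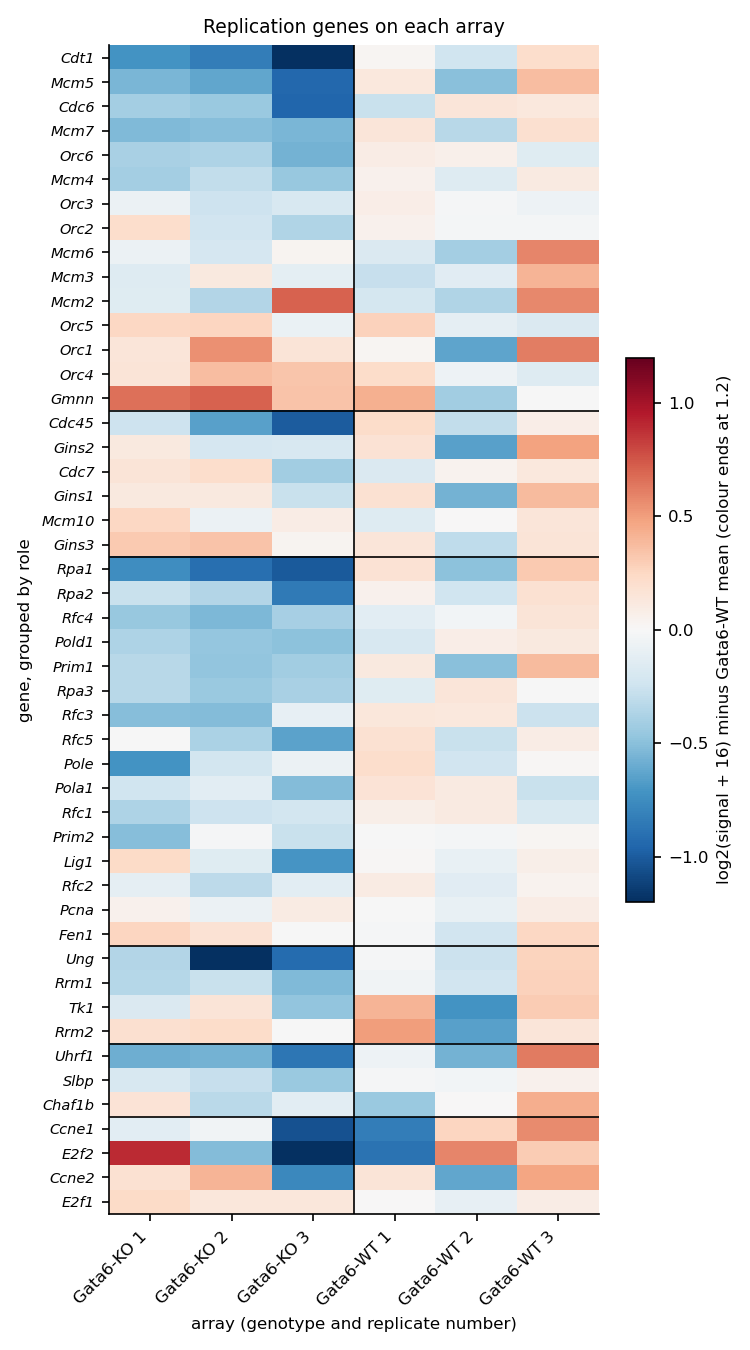
Log2(signal + 16) minus the Gata6-WT mean (colour) for the 48 tested members (rows, grouped by role) on the 6 arrays (columns). Blue prevails in the Gata6-KO columns, with medians of -0.15, -0.25 and -0.39, but the column of Gata6-WT replicate 2, with a median of -0.15, is blue for many genes too.

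Among the licensing factors 1 gene fell. Cdt1, which brings the MCM helicase to origins, had a signal of 913.2, 844 and 601.5 in Gata6-KO pools against 1537, 1276 and 1749 in Gata6-WT pools. All Gata6-KO values lay below all Gata6-WT values. The difference was log2 -0.95 ± 0.18 (SE, 95% interval -1.36 to -0.54, limma adjusted p = 0.010). A second Cdt1 probe set, with lower signal, had 369.3, 313.2 and 315.7 in Gata6-KO against 767.4, 652.7 and 767.9 in Gata6-WT, again without overlap, and a log2 difference of -1.10 ± 0.15 (adjusted p = 0.0016). The dimmest one never exceeded 5.03 and was not tested. Cdt1 was lower in the female-type arrays, at -1.05, and in the male-type arrays, at -0.74. It passed in each of the 6 fits that left out 1 array, with differences of -1.07 to -0.77. Its call ended in a fit without limma's mean-variance trend (adjusted p = 0.055), where the dimmer probe set passed (adjusted p = 0.012).

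Geminin, the protein that binds CDT1 and stops it from loading more MCM, went the other way without passing. Its gene Gmnn had 1121, 1159 and 898.3 in Gata6-KO and 951.5, 521.1 and 699.2 in Gata6-WT, so 1 Gata6-WT pool overlapped. The difference was log2 0.57 ± 0.21 with a 95% interval of 0.10 to 1.04 (adjusted p = 0.12). Without that pool, Gata6-WT replicate 1, Gmnn passed at 0.79 (adjusted p = 0.034), and without Gata6-WT replicate 2 it was at 0.36 (adjusted p = 0.32). It was the 1 member that passed as higher in any fit that left out 1 array. Cdc6, the ATPase that works with CDT1, had 146.6, 142.4 and 95.5 in Gata6-KO and 163, 222.3 and 218.5 in Gata6-WT. These did not overlap, and the difference of -0.60 had an adjusted p of 0.15.

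**Figure D3:**
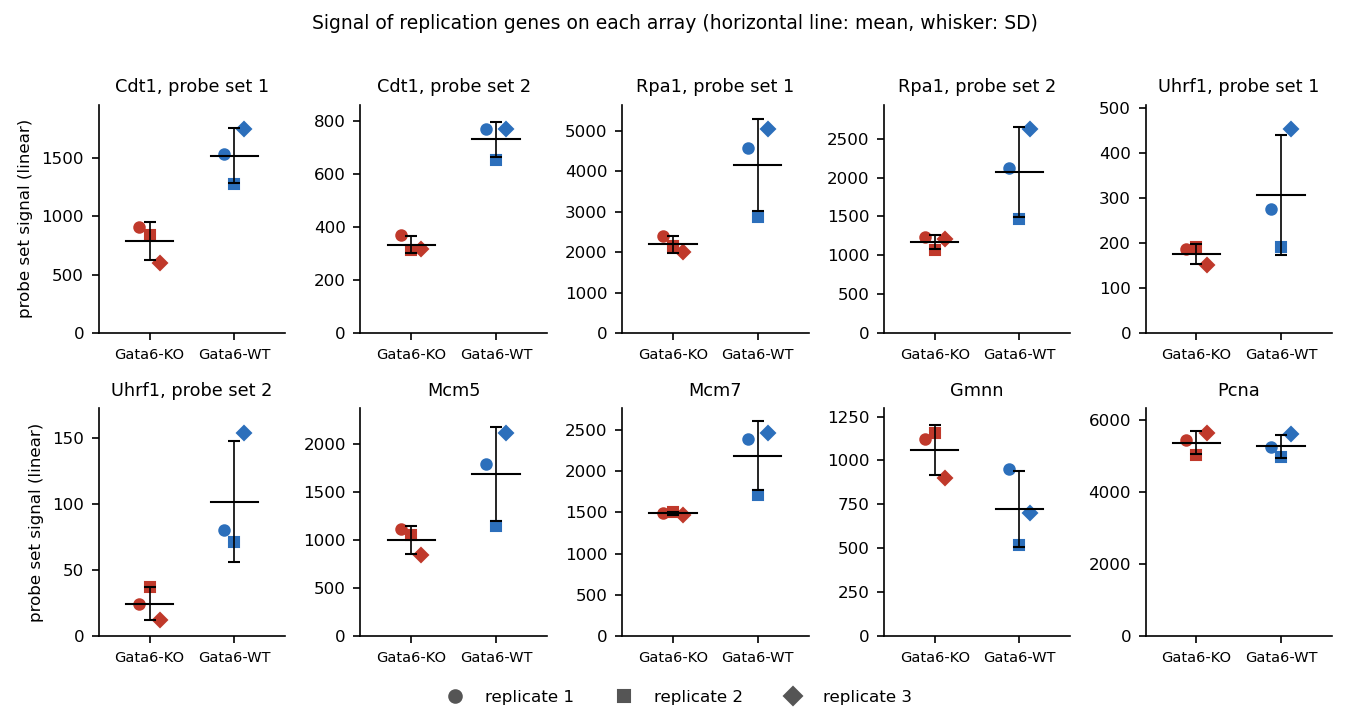
Linear probe set signal (vertical axis, from 0) on each array for 7 members, with both tested probe sets of Cdt1, Rpa1 and Uhrf1. Gata6-KO is left of Gata6-WT, marker shapes give replicate numbers, and the horizontal line and whisker are mean and SD of 3 arrays. Cdt1 and Rpa1 do not overlap between genotypes at either probe set, Gmnn overlaps, and Pcna is level, at 5385 in Gata6-KO and 5279 in Gata6-WT.

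The 6 subunits of the MCM ring ran from -0.70 to 0.072 at their brightest probe sets. Mcm7 had 1495, 1507 and 1469 in Gata6-KO, a narrow range, against 2387, 1711 and 2468 in Gata6-WT. Its difference of -0.53 ± 0.15 just missed the threshold (adjusted p = 0.051) and passed in 6 of 19 other fits, among them the one without Gata6-WT replicate 2 (-0.70, adjusted p = 0.014). Its 3 dimmer probe sets were at -0.39, -0.15 and -0.15 and did not pass. Mcm5 had 1115, 1058 and 840.6 against 1788, 1150 and 2117, where the pool at 1150, Gata6-WT replicate 2, came near the Gata6-KO values. Its difference was -0.70 (adjusted p = 0.070), and -0.95 without that pool (adjusted p = 0.014). Without replicate 3 of Gata6-WT it was -0.52 (adjusted p = 0.18) and without replicate 3 of Gata6-KO -0.58 (adjusted p = 0.21). Its dimmer probe set overlapped between genotypes, at -0.55 (adjusted p = 0.25). Mcm4 was at -0.39 with no overlap (adjusted p = 0.071), and its dimmer probe set overlapped, at -0.27 (adjusted p = 0.37). Mcm2, Mcm3 and Mcm6 lay near 0 at their brightest probe sets, at 0.072, -0.054 and -0.079, with adjusted p of 0.87 to 0.92. Their 95% intervals were -0.63 to 0.77 for Mcm2, -0.46 to 0.35 for Mcm3 and -0.58 to 0.42 for Mcm6. All hold the difference of Mcm4, none holds that of Mcm5, and only that of Mcm3 leaves out Mcm7. The intervals of Mcm5, -1.19 to -0.22, and of Mcm7, -0.87 to -0.20, also hold the difference of Mcm4. A dimmer Mcm2 probe set was at -0.37, and those of Mcm3 ran from 0.016 to 0.70. The dimmer ones of Mcm6 were at 0.023 and -0.15, and none of these passed. Whether the subunits differ from each other was not tested.

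The origin recognition complex, which marks the sites where MCM is loaded, was mixed. Orc6 had 300.4, 303.3 and 263.5 in Gata6-KO and 423.3, 414.4 and 356.6 in Gata6-WT, a difference of -0.44 without overlap (adjusted p = 0.12). Orc2 and Orc3 were at -0.13 and -0.17, and Orc1, Orc4 and Orc5 at 0.28, 0.29 and 0.14, all with adjusted p of 0.25 or more. Over the 15 licensing genes the median was -0.13, with 1 past the threshold and 10 below 0. These are 6.67% and 66.7%, where 7.46% of all genes fell and 53.8% were below 0.

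At their brightest probe sets, genes that activate the helicase showed little shift as a list. Their median was -0.014 over 6 genes and none passed in limma. At an unadjusted p under 0.05, 1 was lower, Cdc45 by its brighter probe set, and 0 higher, against 15.9% and 11.9% of all genes. Gins1, Gins2 and Gins3, of the GINS complex, were at -0.012, -0.092 and 0.23. The kinase gene Cdc7 was at -0.016 and Mcm10, a scaffold of the new fork, at 0.090. Second tested probe sets were at -0.45 for Cdc7 (adjusted p = 0.34) and 0.56 for Gins3 (adjusted p = 0.25), both without overlap. That of Gins2 was at -0.16 and overlapped. Cdc45, a subunit of the active helicase, gave opposite readings at its 2 tested probe sets. The brighter one had 120.2, 87 and 65.2 in Gata6-KO and 172.8, 115.7 and 154.5 in Gata6-WT, a difference of -0.63 (adjusted p = 0.20). The other had 124.5, 121.8 and 109.8 against 62.9, 65 and 20.4, a difference of 1.13 with no overlap (adjusted p = 0.085). No direction can be given for Cdc45.

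At the fork, the single-strand binding complex RPA had all 3 subunit genes below Gata6-WT without overlap, as 19.4% of all genes were, and 1 of them past the threshold, as 7.46% were. Rpa1, its large subunit, had 2409, 2161 and 2000 in Gata6-KO pools against 4574, 2878 and 5047 in Gata6-WT pools. Gata6-WT replicate 2 again lay nearest to Gata6-KO. The difference was -0.89 ± 0.19 (SE, 95% interval -1.32 to -0.45, limma adjusted p = 0.019). The dimmer Rpa1 probe set, with 1237, 1068 and 1216 against 2127, 1469 and 2625, gave -0.78 ± 0.19 (adjusted p = 0.032). The call at the brighter probe set was lost in 4 of the 6 fits that left out 1 array. Its adjusted p was 0.060 without replicate 2 and 0.069 without replicate 3 of Gata6-KO, and 0.057 without replicate 1 and 0.054 without replicate 3 of Gata6-WT, with differences of -1.13 to -0.73 over the fits that left out 1 array. Over those fits the dimmer probe set passed only without Gata6-WT replicate 2. The call at the brighter probe set was also lost without the mean-variance trend (0.085) and in a fit of the female-type arrays alone (0.090). In these 2 fits the dimmer one did not pass either (0.11 and 0.14), nor with array weights (0.058). Rpa1 was at -0.87 in the female-type and -0.92 in the male-type arrays. Rpa2 and Rpa3 were at -0.49 and -0.39 (adjusted p = 0.17 and 0.087), although a second Rpa2 probe set was at -0.094.

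Other fork genes lay mostly below 0 by small amounts. The clamp loader subunits Rfc1 to Rfc5 were at -0.28, -0.18, -0.37, -0.46 and -0.34. Rfc4 had 351.8, 332.4 and 367 in Gata6-KO against 446.8, 479.1 and 547 in Gata6-WT, with adjusted p = 0.084, and passed when its 2 probe sets were averaged (-0.55, adjusted p = 0.047). Polymerase delta's catalytic subunit Pold1 was at -0.44 without overlap (adjusted p = 0.12), Pole at -0.34, and Pola1, Prim1 and Prim2, which make the primers, at -0.29, -0.41 and -0.26. Lig1, the ligase that joins lagging-strand fragments, was at -0.21.

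Pcna, the sliding clamp, stood apart from this lean, as did Fen1, the flap nuclease, at the brighter of its 2 probe sets only. Pcna had 5458, 5034 and 5662 in Gata6-KO and 5260, 4970 and 5608 in Gata6-WT, nearly the same range. Its difference was 0.029 with a 95% interval of -0.20 to 0.26, the narrowest of the 48 members, and its sign depended on the scaling (-0.021 after median scaling). Fen1 was at 0.14 (95% interval -0.19 to 0.48), and at -0.067 when its 2 probe sets were averaged. Its dimmer probe set was at -0.28 (adjusted p = 0.44 in limma). In all, 14 of the 16 fork genes were below 0, with a median of -0.34 and 1 past the threshold. These are 87.5% and 6.25%, where 53.8% of all genes were below 0 and 7.46% fell.

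Nucleotide supply and uracil removal gave no call in limma among 4 tested genes, with 2 lower and 0 higher at an unadjusted p under 0.05, against 15.9% and 11.9% of all genes. Ung, the glycosylase that removes uracil from new DNA, had 103.2, 46.6 and 64.2 in Gata6-KO and 134.8, 111.1 and 167.6 in Gata6-WT. They did not overlap, and the difference of -0.85 ± 0.31 missed the threshold (adjusted p = 0.12). Rrm1, the large subunit of ribonucleotide reductase, was at -0.38 (adjusted p = 0.19), while a second probe set was at 0.19. Rrm2, the small subunit made in S phase, had 290.7, 297 and 252 in Gata6-KO inside a Gata6-WT range of 155.1 to 364.9. Tk1, thymidine kinase, was also inside its Gata6-WT range of 82.8 to 199.8, with 101 to 165.2 in Gata6-KO.

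Among chromatin genes Uhrf1 was called at 1 of its 2 probe sets. UHRF1 brings the maintenance DNA methyltransferase to newly copied DNA. At its dimmer probe set the signal was 24.2, 37.6 and 12.6 in Gata6-KO against 80.8, 71.3 and 154.5 in Gata6-WT, a difference of -1.52 ± 0.41 (adjusted p = 0.045). All 3 Gata6-KO values are under the signal of 47.5 that corresponds to the filter, so the fold rests on dim signals. The probe set thus reached the filter only through its Gata6-WT signals, which favours a call as lower. That call was lost without Gata6-KO replicate 1 (adjusted p = 0.090), replicate 2 (0.053) or replicate 3 (0.12), and without any 1 Gata6-WT array the probe set was too dim to be tested. The brighter probe set had 186.9, 190.3 and 150.9 against 276.8, 190.5 and 453.5, where the second Gata6-KO and second Gata6-WT pools were nearly equal, and a difference of -0.67 (adjusted p = 0.18). Slbp, which binds the stem-loop of histone mRNA, was at -0.30 without overlap (adjusted p = 0.13), and the histone chaperone subunit Chaf1b at -0.094.

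Genes of S phase entry were mostly dim and scattered. E2f1, an E2F activator, had 313.6, 291.9 and 292 in Gata6-KO and 266, 246.7 and 283.4 in Gata6-WT, a difference of 0.16 without overlap but with adjusted p = 0.58. E2f2, another activator, had 127.5, 37.6 and 13.2 in Gata6-KO against 25.7, 99.8 and 79 in Gata6-WT. Its difference was below 0 in the female-type arrays (-1.41) and above 0 in the male-type ones (1.78), with an unadjusted interaction p of 0.0071 in limma that did not hold after adjustment (adjusted p = 1). The cyclin E genes Ccne1 and Ccne2, partners of CDK2 at the start of S phase, were at -0.40 and -0.060, with intervals of -1.41 to 0.60 and -0.92 to 0.80.

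Several probe sets of 1 gene did not always give 1 answer. Of the 30 members with several tested probe sets, 19 had all of them on 1 side of 0 and 11 did not. Mcm3 ran from -0.05 to 0.70 over 5 probe sets, Orc2 from -0.13 to 0.59 over 3 and Rfc3 from -0.37 to 0.16 over 2. Of the 91 tested member probe sets 5 passed, all lower, in Cdt1, Rpa1 and Uhrf1, and over the whole array 5.67% of tested probe sets passed as lower and 5.12% as higher. That of Uhrf1 was tested only through its Gata6-WT signals, so its call is weaker support than the others. Where such a gene has opposite readings, the direction given above holds for the brighter probe set only.

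**Figure D4:**
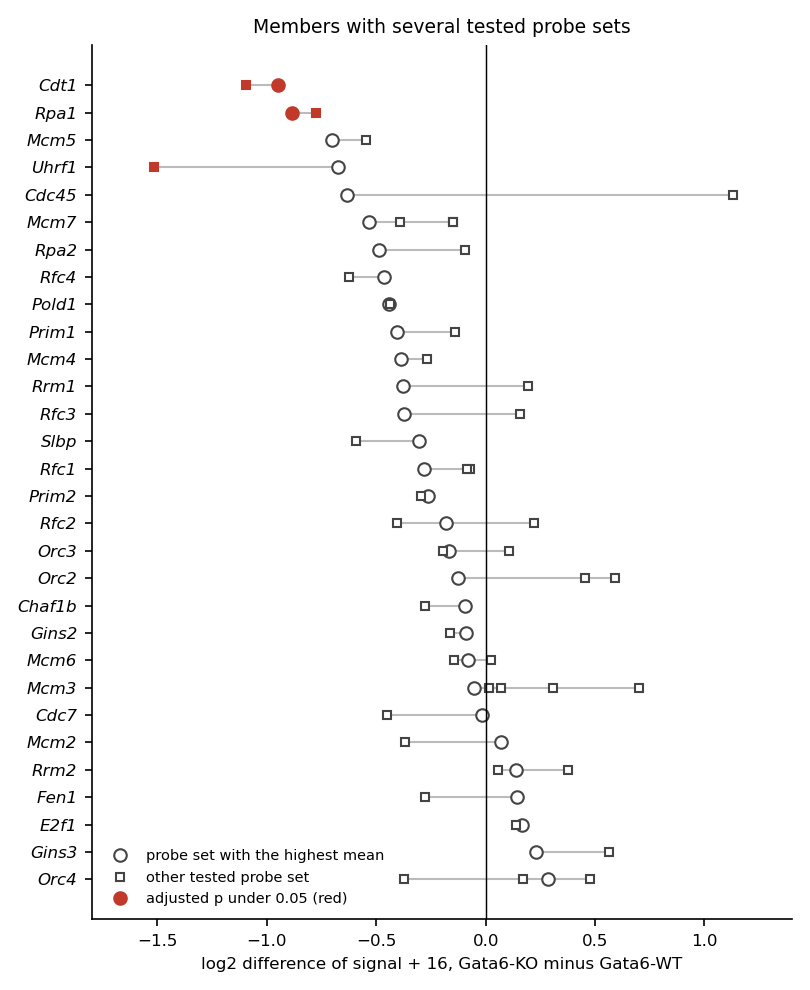
Log2 difference of signal + 16 (horizontal axis, Gata6-KO minus Gata6-WT) at each tested probe set of the 30 members with several, circles for the probe set with the highest mean. Red marks the 5 probe sets past the threshold, in Cdt1, Rpa1 and Uhrf1, and Cdc45 spans the widest range, -0.63 to 1.13. The red Uhrf1 probe set reached the filter only through its Gata6-WT signals.

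Promoters were read to see what the members share beyond their function. RefSeq promoter sequences of build GRCm38.p6, each 250 bases before to 50 after a gene's start, were available for 42 of the 50 members in 52 windows. The E2F motif was searched on both strands with the letters TTCCCGC, or TTGGCGC, or TTCGCGC, or else TTGCCGC. Such a match was in 31 of these windows, or 59.6%, in 15.8% of the promoters of genes tested on the arrays and in 9.57% of all promoters. CCAAT was in 57.7% of the members' windows, 37.5% of the promoters of genes tested and 37.4% of all, and 5 of the members' 51 E2F matches overlap a CCAAT. The letters TTTGAA, an element of genes switched on later for mitosis, were in 13.5% of the members' windows, 12.1% of the promoters of genes tested and 17.9% of all. In the promoters of the mitosis genes listed below, these shares were 16.7% for E2F, 88.9% for CCAAT and 72.2% for TTTGAA. A match is a run of letters and not a measured binding site.

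The stretches that follow set Cdt1, the licensing factor that fell, beside 3 MCM genes that did not pass, since all 4 carry E2F matches. Each is printed 5′ to 3′ on the gene's strand, and capitals mark the E2F matches.
Cdt1: atccGCGGGAActacctttTTGGCGCcatg
Mcm3: GCGGGAAaacttgggaagttTTGGCGCCAA
Mcm5: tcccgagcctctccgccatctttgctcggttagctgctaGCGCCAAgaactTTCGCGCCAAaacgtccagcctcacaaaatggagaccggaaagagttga
Mcm6: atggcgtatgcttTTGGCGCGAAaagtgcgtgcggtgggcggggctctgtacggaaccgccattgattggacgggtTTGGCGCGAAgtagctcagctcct

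The Cdt1 stretch is chr8:122568029-122568058 on the plus strand and starts 15 bases into the gene. The Mcm3 stretch, chr1:20820264-20820293 on the minus strand, starts 20 bases into it. The Mcm5 stretch, chr8:75109306-75109405 on the plus strand, ends 104 bases before the gene's start, and that of Mcm6, chr1:128359728-128359827 on the minus strand, ends 23 bases before it. Cdt1 and Mcm3 both have a TTCCCGC, read on the other strand, and a TTGGCGC within their first 50 bases, with differences of -0.95 and -0.054. Mcm6 had 5 matches in its window and a difference of -0.079, and Mcm5 had 3 and a difference of -0.70. In Mcm3, Mcm5 and Mcm6 some matches overlap on opposite strands, so the number of separate sites is smaller. No E2F match of these letters was in the window of Rpa1, the other member that fell.
Rpa1, with a CCAAT in capitals: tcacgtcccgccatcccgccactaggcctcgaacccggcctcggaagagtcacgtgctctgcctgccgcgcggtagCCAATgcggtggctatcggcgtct

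This stretch of Rpa1 is chr11:75348402-75348501 on the minus strand and ends 19 bases before the gene's start. Of the tested members, the 26 with an E2F match had a median difference of -0.32, with 21 below 0, and the 14 without one had -0.23, with 9 below 0.

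Other genes of the replication pathway, 42 of 44 listed genes that were tested, held calls in both directions. In Gata6-KO 1 fell, or 2.38%, where 7.46% of all genes did, and 2 rose, or 4.76%, where 5.61% of all genes did. The median was -0.0745. Pold2, the accessory subunit of polymerase delta, had 418.6, 270.1 and 343.3 in Gata6-KO and 619, 635.4 and 720.4 in Gata6-WT (log2 -0.92, adjusted p = 0.011), and passed with any 1 array left out. Dbf4, the activating subunit of the CDC7 kinase, rose, with 462, 523.1 and 422.4 against 331.6, 270.6 and 232.9 (log2 0.73, adjusted p = 0.030). Cdc7 itself did not pass. Samhd1, which breaks down deoxynucleotides, rose by 0.66 on the log2 scale (adjusted p = 0.035), while 3 of its 5 tested probe sets did not pass. Of the fits that left out 1 array, Dbf4 passed only without Gata6-WT replicate 1, at 0.86, and the Samhd1 call was lost without replicates 1 or 2 of Gata6-KO and without replicates 2 or 3 of Gata6-WT, with adjusted p of 0.086 to 0.11.

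In the E2F and RB family 1 of 19 genes fell and 1 rose, with a median of -0.23. Each is a share of 5.26%, where 7.46% of all genes fell and 5.61% rose. E2f5, a repressor-type E2F, had 695.5, 1089 and 1135 in Gata6-KO and 423.2, 393.6 and 416.3 in Gata6-WT (log2 1.18, adjusted p = 0.0043). All 3 of its probe sets passed as higher, and it passed in each fit that left out 1 array. Cdk2, the kinase of S phase entry, had 597.6, 614 and 629 against 776.3, 1104 and 1099 (log2 -0.66, adjusted p = 0.028). That call was lost in 5 of the 6 fits that left out 1 array, all but the one without Gata6-WT replicate 1, with adjusted p of 0.069 to 0.11.

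Mitosis genes leaned the same way as the replication genes, with differences from -0.61 to 1.27. Of 19 tested, 16 were below 0, or 84.2%, where 53.8% of all genes were, with a median of -0.22. In limma 0 fell and 1 rose, or 5.26%, where 7.46% and 5.61% of all genes did. With the unadjusted p under 0.05, 2 were lower and 2 higher, or 10.5% each, where 15.9% and 11.9% of all genes were. Their per-array medians, minus the Gata6-WT mean, were -0.12, -0.21 and -0.40 in Gata6-KO and 0.37, -0.39 and 0.040 in Gata6-WT replicates 1, 2 and 3, so the whole Gata6-KO range nearly fitted inside the Gata6-WT range. Kif23, a motor protein of cell division's last step, rose, with 578.7, 398.6 and 302.8 against 237.2, 101.3 and 173.3 (log2 1.27, adjusted p = 0.031). Its call was lost when either of replicates 1 and 2 of Gata6-KO, or of 2 and 3 of Gata6-WT, was left out, with adjusted p of 0.064 to 0.10.

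**Figure D5:**
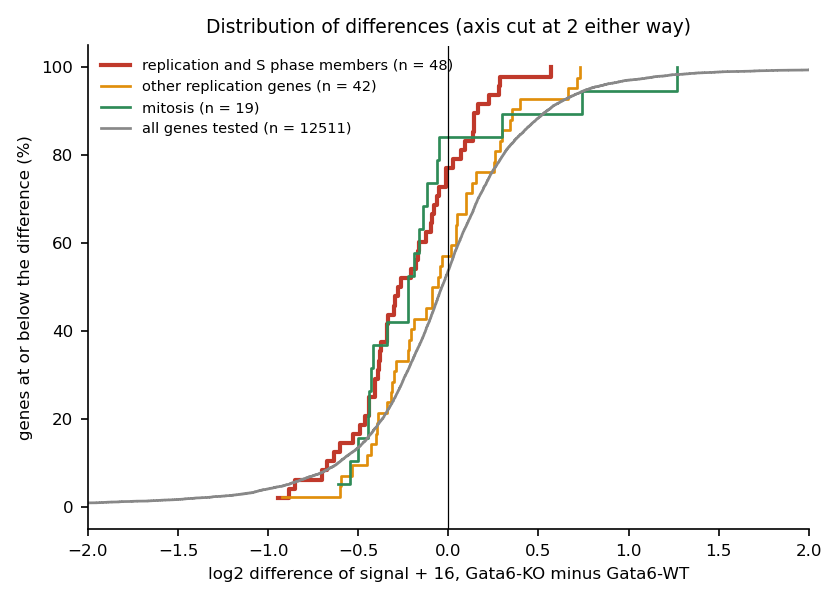
Cumulative share of genes (vertical axis, percent) against the log2 difference of signal + 16 (horizontal axis, Gata6-KO minus Gata6-WT, cut at 2 either way) for the 48 members, 42 other replication genes, 19 mitosis genes and all 12511 genes tested. The curve of the members crosses 0 at 77.1% and that of all genes at 53.8%, while its ends stay within -0.95 and 0.57.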

How the data were processed

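The authors deposited linear intensities of 45101 probe sets on each array, made with MAS5 and affy per the submitters' processing notes with no version named. The trimmed mean (highest and lowest 2% removed) was 500 on all 6 arrays. MAS5 subtracts mismatch-based stray signal, which makes dim values noisy; no detection calls were used. Symbols came from the platform annotation: 34958 probe sets had 1 symbol, 932 several and 9211 none here; 34754 of the first matched the GRCm38.p6 gene table.

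Intensities became log2(signal + 16), a scale that shrinks the folds of dim genes. After leaving out 64 control probe sets, those with a mean above the 40th percentile (5.99, a signal of 47.5) were tested, 27022 in all, with limma 3.58.1 in R 4.3.3 (lmFit, eBayes with trend), two-sided, Benjamini-Hochberg over all of them. P-values measure the spread between pools, which the labels call biological replicates, and the number of arrays limits the precision. On simulated arrays with 27022 probe sets, the fit recovered 2%, 36%, 68% and 90% of 50 changes each of log2 0.5, 1, 2 and 3, with 6 false calls of 104. The data held more calls, 2916, which makes the adjusted threshold less strict than in the simulation. Members, lists and naming rule (each member past the threshold, the 20 next by p, any other with its values; up to 3 called genes of other lists) were chosen with earlier results of these data known. Matplotlib 3.10.9 in Python 3.11.15 drew the figures.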

Additional observations from a re-analysis of the deposited data

How the results depend on the processing

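The fit was varied in 19 ways. The members' median log2 difference stayed below 0 in each, from -0.32 to -0.17 overall and -0.30 to -0.19 with 1 array left out. The count of members that fell, 2 in the reported fit, was 0 without the mean-variance trend in limma (12 lower at an unadjusted p under 0.05, adjusted p = 0.055 for Cdt1 and 0.085 for Rpa1), 0 at adjusted p under 0.01, and 1 in the female-type arrays only (Cdt1). It was 3 with pseudocount 64, the 60th percentile filter, quantile normalization, median scaling or the replicate block, each adding Mcm7, and 3 with a gene's probe sets averaged, adding Rfc4. With 1 array left out it ran from 1 to 4 (4 without Gata6-WT replicate 2, adding Mcm5 and Mcm7), and 0 to 1 members rose (Gmnn). The probe sets past the threshold, 2916 in all, were 1459 without the trend, 1615 in the female-type arrays, 1251 at 0.01 and 1851 to 2465 with 1 array left out. On simulated arrays 2% of log2 changes of 0.5 were called. Those arrays held 104 calls in all, so the adjusted threshold was stricter there than with the 2916 calls of the data. The 2% therefore cannot say what share of shifts of the members' size these arrays can call.

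Arrays of the same number shared deviations at r = 0.128, 0.0743 and 0.0741 for replicates 1, 2 and 3. Since 2 of these are under 0.1, the numbers were not taken as pairs, although each array correlated best with its own number, a hint from the data and not the design. The replicate block gave 3076 calls and ended that of the dimmer Uhrf1 probe set (adjusted p = 0.079), which was also lost with pseudocount 1 (0.054), no filter (0.087), no trend (0.052), array weights (0.058), the female-type arrays alone (0.14) and the sex type as a covariate (0.062).

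The signs that turned belonged to genes that did not pass in the reported fit, and the cause was not tested. With array weights Tk1 was 0.087, Mcm6 0.0695, Gins2 0.12, Mcm3 0.035, Ccne2 0.21, Cdc7 0.022, Gins1 0.19 and Mki67 0.15. In the female-type arrays Tk1 was 0.049, Mcm10 -0.062, Gins1 0.018 and Mki67 0.083. With a gene's probe sets averaged Cdc45 was 0.25, Fen1 -0.067, Orc2 0.31, Mcm3 0.21 and Mcm2 -0.15. After median scaling Pcna was -0.021. After quantile normalization Gins1 was 0.025. With 1 array left out the ranges were Chaf1b -0.31 to 0.12, Lig1 -0.43 to 0.045, E2f2 -0.79 to 0.19, Pcna -0.014 to 0.076, Mcm2 -0.25 to 0.36, Ccne2 -0.37 to 0.30, Cdc7 -0.13 to 0.18, Gins1 -0.29 to 0.18, Mki67 -0.41 to 0.14, Tk1 -0.52 to 0.044, Orc1 -0.034 to 0.59, Rrm2 -0.19 to 0.39, Mcm6 -0.28 to 0.21, Gins2 -0.42 to 0.15 and Mcm3 -0.19 to 0.15.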
